A study of Mus musculus with 4 samples.

Results

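HoxA9-Ct ES cells are mouse embryonic stem cells that express the C-terminal part of HoxA9, with its homeodomain, but none of the Nup98 part of the Nup98-HoxA9 leukaemia fusion. They were compared here with the parental EB3 ES cells from which they were made. The comparison takes 2 of the 4 arrays of the series, 1 array for each line, and 28322 of 55681 probes that were well above background in at least 1 of these lines. The other 2 arrays hold Nup98-HoxA9 ES clones #1 and #9, which carry the same HoxA9 part joined to Nup98, and their values are given beside those of the comparison. HoxA9-Ct ES is a single picked colony that carries a FLAG-tagged transgene in a Tol2 transposon vector and was selected with hygromycin B, whereas neither a transgene nor a selection is described for the parental cells. All lines were grown with LIF. Effects of the transgene, of the selection and of the choice of 1 colony cannot be told apart in this design. Total RNA from ES cells was labelled with Cy3, and all 4 arrays were on the same slide and scanned together. The age and passage of the cultures are not given in the sources used here.

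HoxA9 is a transcription factor of the posterior Hox group. Its homeodomain binds short AT-rich sites, often together with the cofactors Pbx and Meis, and HoxA9 is known for holding blood progenitors in an immature state in leukaemia. ES cells keep the Hox clusters largely silent under Polycomb repression, and the Nup98 part of the fusion brings in FG repeats, which bind nuclear transport factors. HoxA9-Ct therefore serves as the version of the protein that keeps the DNA-binding domain and lacks these repeats.

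All signals below are log2 values relative to the 75th percentile of the array, so that 0 is a bright spot and a probe at -4 is close to the background. The lowest signal called well above background was -4.28 in parental ES and -4.23 in HoxA9-Ct ES. Where only 1 line was well above background, the difference is a lower bound taken against this limit or against the dim signal, whichever is higher, and is written as "at least". Runs of 4 values give parental ES, HoxA9-Ct ES, clone #1 and clone #9, always in this order. With 1 array for each line there is no measure of the error between cultures of either line, so probes were called when they differed by more than 2-fold. A limma fit of all 4 arrays, whose only residual degree of freedom is the gap between the clones, served as an alternative. The precision within the arrays is better known. The median SD between spots in the log2 ratio was 0.077 over 245 probes printed 10 times, and the median gap between the ratios of both probes of a gene was 0.115 (95th percentile 0.544) over 2186 genes with 2 such probes. The software's own error is given as SE of the log2 ratio for single probes. It is close to 0.20 for bright single spots and larger near the background.

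The lines were close to each other overall. Both lines were well above background at 26269 probes, of which 98.7% lay within 2-fold, with a median log2 ratio of 0.001. Among all tested probes, 382 (1.35%) were more than 2-fold higher and 233 (0.823%) lower by the same measure, 615 (2.17%) in either direction. In 152 of those that were higher the parental line was at background, and in 125 of those that were lower the HoxA9-Ct line was at background. The Nup98-HoxA9 clones, which are the only pair of lines with the same transgene, differed by more than 2-fold at 1695 of 29690 probes (5.71%). Over 25529 probes that every array measured well above background, the log2 ratio had an SD of 0.300 between HoxA9-Ct and parental ES and of 0.467 between these clones. Differences past 2-fold were thus more frequent between clones of the same kind than between the compared lines. Median ratios of the chromosomes with at least 100 probes lay between -0.045 and 0.025.

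**Figure D1:**
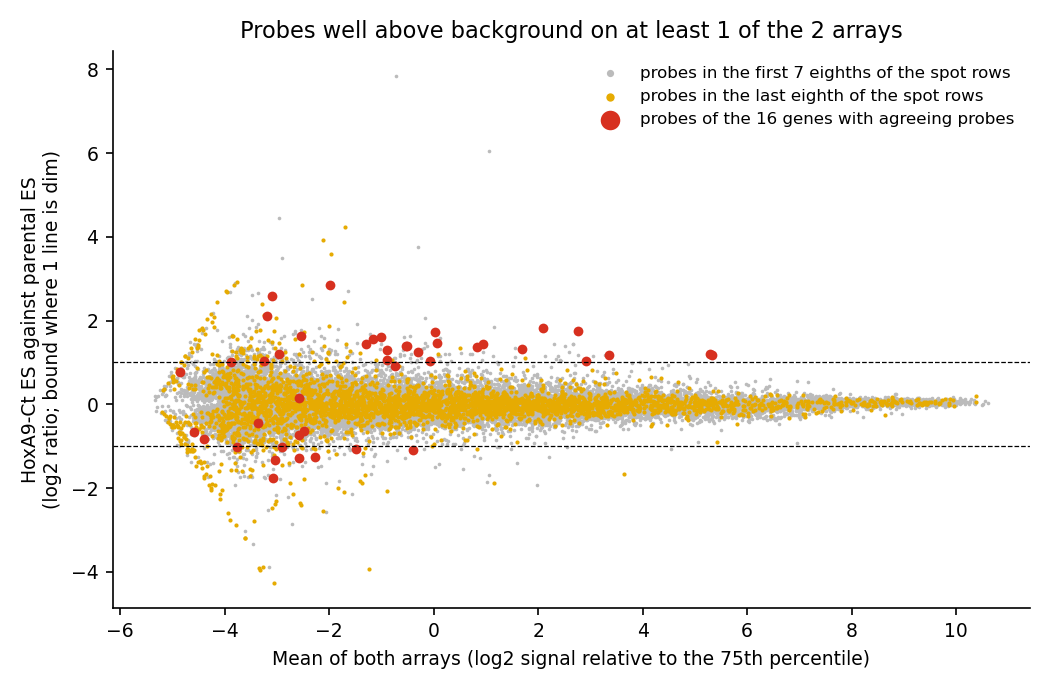
Log2 ratio of HoxA9-Ct ES to parental ES (y axis, a lower bound where 1 line is at background) against the mean log2 signal of both arrays (x axis) for every probe well above background in at least 1 line. Grey and yellow points separate probes by position on the array, red points are the tested probes of the 16 genes with agreeing probes outside the last eighth of the rows, and dashed lines mark 2-fold. Most points past the lines have low signal, and the largest ratio is the bound of 7.84 for Msx3.

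Position on the array moved with the calls. Among probes with 1 spot, 2.74% were called higher and 2.62% lower in the last eighth of rows, against 0.930% to 1.38% higher and 0.405% to 0.661% lower in each of the other eighths. Of the probes past 4-fold, 16 of 34 that were higher and 25 of 34 that were lower lay there. Outside it, 285 of 24776 probes (1.15%) were called higher and 140 (0.565%) lower. What this region of the slide contributes to a single call was not tested. Weight is therefore given to genes outside it with several probes. Of 4062 genes with at least 2 tested probes there, 12 (0.295%) had at least 2 probes more than 2-fold higher and none of opposite sign, and 4 (0.0985%) had at least 2 probes lower in the same way. Normexp background correction, with an offset of 50, starts from the median spot and background signals and not from the processed signal. The input and the offset thus changed together. Under it, 6 of these 12 and none of the 4 kept their call. The genes that kept it were Slc13a5, Defa3, Defa23, Tuba3a, NM_010031 and an interval on chromosome 18, and the called probes of the others kept their direction.

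**Figure D2:**
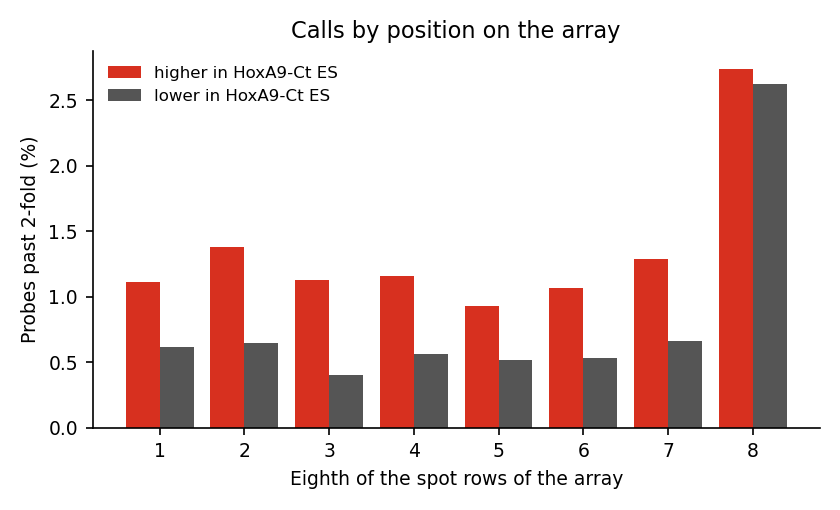
Percentage of tested probes with 1 spot that were more than 2-fold higher (red) or lower (grey) in HoxA9-Ct ES, for each eighth of the spot rows from the first to the last. The last eighth reaches 2.74% and 2.62%, above the others in both directions.

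Genes of the 12 that were higher include a citrate transporter, a chromatin architecture gene, a testis tubulin, a Polycomb-related imprinted gene, an X-linked germline gene and a group of intestinal defensins. Slc13a5, which encodes a plasma membrane citrate transporter, had the largest difference among agreeing genes with a signal above 0 in both lines. Its first probe read 1.19 in parental ES and 3.02 in HoxA9-Ct ES, with 0.93 and 2.35 in clones #1 and #9. Its second probe read 1.88, 3.64, 1.57 and 3.13. HoxA9-Ct ES was thus 3.55-fold and 3.38-fold above parental ES (log2 ratios 1.83 and 1.76, SE 0.20 each), clone #9 was also higher than parental ES, and clone #1 was slightly lower.

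Hmga2, an AT-hook protein that shapes chromatin and is typical of embryonic and tumour cells, was higher at both probes. The brighter probe read -1.20 in parental ES and 0.19 in HoxA9-Ct ES, with 1.66 and -0.48 in clones #1 and #9, a 2.61-fold difference between the compared lines. The dimmer probe read -3.34, -1.72, -0.16 and -2.46 and gave 3.09-fold. Every transgenic line was above parental ES at both probes, and clone #1 was the highest.

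Xlr3b belongs to an X-linked family expressed in lymphoid and germ cells. Its brighter probe read -3.40 in parental ES and -0.56 in HoxA9-Ct ES, with -0.69 and 2.999 in clones #1 and #9, a 7.19-fold difference (log2 ratio 2.85, SE 0.29). At its dimmer probe parental ES was at background, and HoxA9-Ct ES read -1.70, at least 5.98-fold higher. HoxA9-Ct ES and clone #1 lay side by side, and clone #9 was far above them. Xlr3b has close copies beside it on the X chromosome, so the probes may read more than 1 of them. Both probes of the neighbouring family member Xlr4a and the single probe of Xlr4b, looked at after the values were seen, were at background in parental and HoxA9-Ct ES. Clone #1 was at background there too, while clone #9 read -2.01 and -0.89 at Xlr4a and -0.71 at Xlr4b.

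Tuba3a, an alpha-tubulin known from testis, was bright everywhere. Its probes read 4.69 and 4.73 in parental ES and 5.90 and 5.91 in HoxA9-Ct ES, while clone #1 read 4.50 and 4.52 and clone #9 read 5.76 and 5.77. The ratios to parental ES were 2.31-fold and 2.26-fold. The near-identical Tuba3b, whose probe was chosen after its value was seen, read 0.56, 1.72, 0.44 and 2.14, so the same 2 lines were high. Signal of each paralog on the probes of the other cannot be told apart.

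Sfmbt2, an imprinted Polycomb-group gene expressed from the paternal allele in early embryo and placenta, had 3 tested probes and was higher at each. The brightest read -0.58 in parental ES and 0.46 in HoxA9-Ct ES, with 1.67 and 1.60 in clones #1 and #9, 2.07-fold between the compared lines. The next read -1.54, -0.25, 0.61 and 0.49, 2.44-fold. At the dimmest, parental ES was at background and HoxA9-Ct ES at least 1.69-fold higher. HoxA9-Ct ES lay between parental ES and both fusion clones at all 3 probes. It was the only called gene among the 25 tested genes of the imprinted list, whose median log2 ratio was -0.05. For all named genes the share called higher was 1.33%. Dio3, an imprinted deiodinase that is not on that list and was looked at after its value was seen, read -3.50, -1.79, -3.89 and -1.61, 3.26-fold higher in HoxA9-Ct ES.

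ENSMUST00000172100, which the RefSeq table does not name, had 3 probes with 2.72-fold, 2.38-fold and 2.04-fold higher signal in HoxA9-Ct ES. Its brightest probe read -0.93 in parental ES, 0.32 in HoxA9-Ct ES, 4.88 in clone #1 and 5.54 in clone #9. The other agreeing entries were noncoding transcript intervals of the array annotation (build mm9), with signals from near background to bright. The interval chr15:96984422-97000322 on the minus strand was 1.90-fold, 2.08-fold and 2.29-fold higher at its 3 tested probes. An interval on chromosome 18 was 2.05-fold to 3.33-fold higher at 3 probes, and there the clones lay with parental ES: its brightest probe read 2.78, 3.96, 2.70 and 2.78. The probes of chr16:21794415-21815365, on the plus strand, disagreed in size, with log2 ratios of 0.15, at least 1.01 and at least 2.11.

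**Figure D3:**
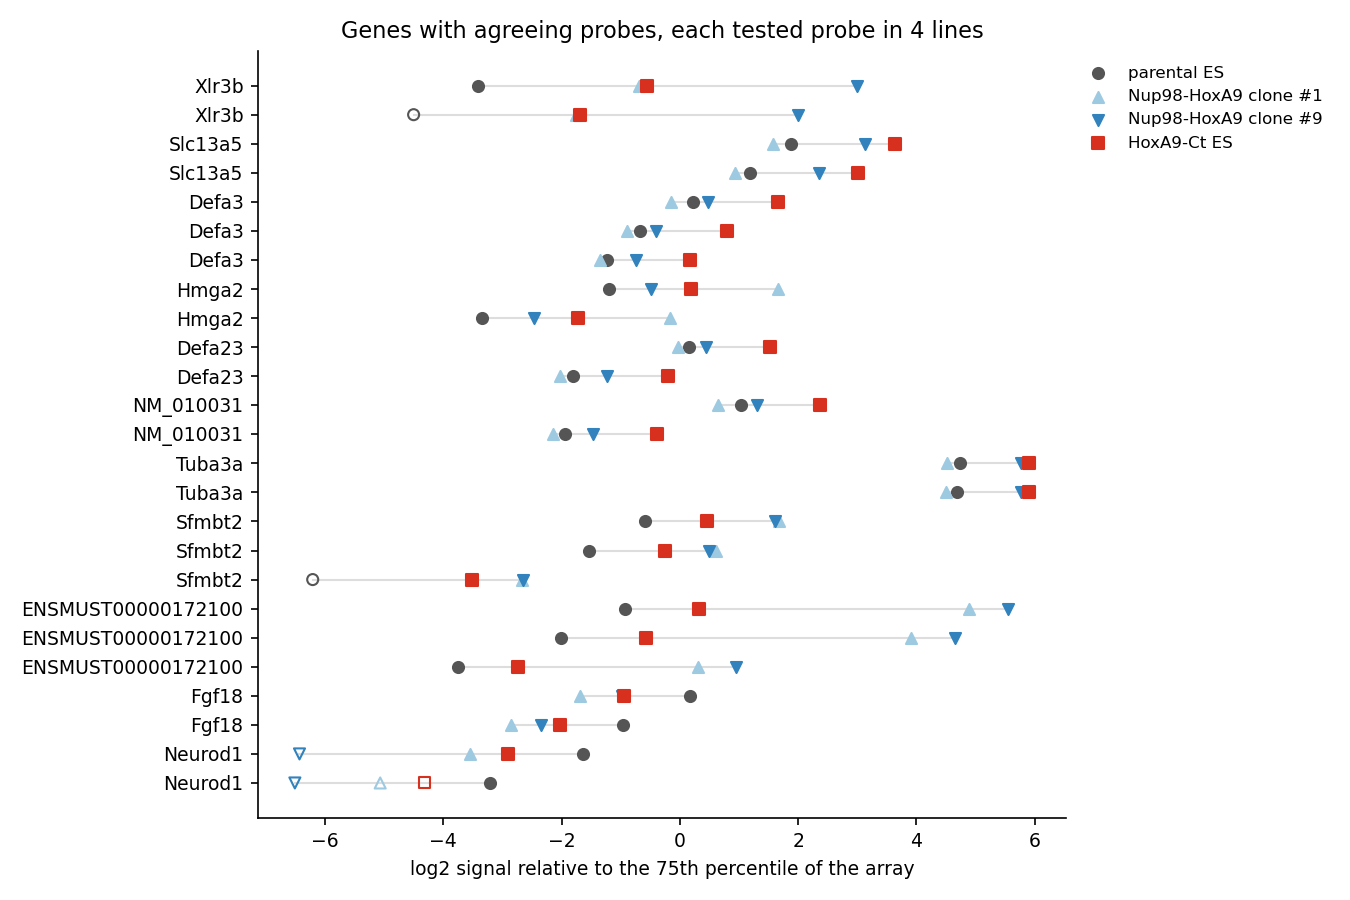
Log2 signal relative to the 75th percentile of the array (x axis) in each of the 4 lines for every tested probe of the agreeing genes that have a gene symbol or a transcript accession. Each row is 1 probe, open symbols are at background, and there is 1 array for each line. HoxA9-Ct ES stands above all other lines at the defensins and Slc13a5, lies between parental ES and the highest clone at Hmga2 and Sfmbt2, and lies below parental ES at Fgf18 and Neurod1.

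The alpha-defensins were the group in which HoxA9-Ct ES stood alone. Alpha-defensins are small antimicrobial peptides that Paneth cells of the small intestine secrete, encoded by many near-identical genes on chromosome 8. Every gene with a Defa symbol was taken, after the first values had been seen. The array has 22 probes for 17 such symbols, of which 11 probes of 8 genes were well above background and 11 were at background in both lines. All 11 tested probes were more than 2-fold higher in HoxA9-Ct ES, against 1.35% of all tested probes, and none lay in the last eighth of the rows. The log2 ratios ran from 1.20 at Defa-ps1 to 1.64 at Defa26, with a median of 1.43, against 0.001 for all probes above background in both lines.

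Defa3 had 3 agreeing probes. The brightest read 0.22 in parental ES and 1.65 in HoxA9-Ct ES, with -0.15 and 0.48 in clones #1 and #9, 2.69-fold above parental ES. The others gave 2.64-fold and 2.76-fold. Defa23 had 2 agreeing probes, and the brighter read 0.16, 1.52, -0.02 and 0.44, 2.57-fold, while the dimmer gave 3.03-fold. Single probes of Defa26, Defa27, Defa32, Defa37, Defa40 and Defa-ps1 were 3.11-fold, 2.77-fold, 2.53-fold, 2.91-fold, 2.52-fold and 2.29-fold higher. Over the tested probes, clone #1 lay between -0.50 and -0.02 and clone #9 between 0.03 and 0.57 of parental ES on the log2 scale, so HoxA9-Ct ES was above the 3 other lines at each. The entry NM_010031, which the RefSeq table does not name, had a like profile, with 1.04, 2.36, 0.65 and 1.30 at its brighter probe and ratios of 2.50-fold and 2.95-fold. Because the genes share most of their sequence, 11 probes are not 11 independent genes, and signal from 1 or a few copies read by many probes cannot be told apart from a change of all of them.

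**Figure D4:**
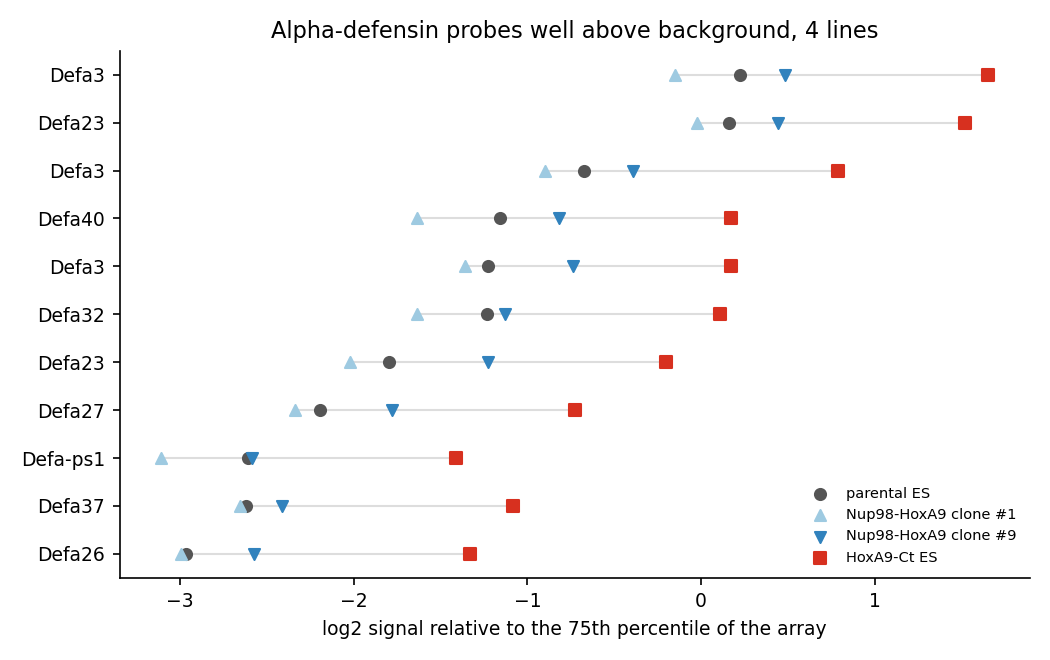
Log2 signal relative to the 75th percentile of the array (x axis) for the 11 alpha-defensin probes well above background, 1 row for each probe, in 4 lines with 1 array each. At every probe HoxA9-Ct ES is to the right of the other lines, by 1.20 to 1.64 from parental ES.

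Promoters of the defensins are shown because these genes moved together. RefSeq (GRCm38.p6) gives a promoter for Defa23, Defa32 and Defa37 among those with a tested probe, and the 250 bases before each start site are printed, 5′ to 3′. Defa23 is at chr8:21054790-21055039, Defa32 at chr8:21528780-21529029 and Defa37 at chr8:21565136-21565385, all on the plus strand. Capitals mark the longest run of letters that the 3 share.
Defa23: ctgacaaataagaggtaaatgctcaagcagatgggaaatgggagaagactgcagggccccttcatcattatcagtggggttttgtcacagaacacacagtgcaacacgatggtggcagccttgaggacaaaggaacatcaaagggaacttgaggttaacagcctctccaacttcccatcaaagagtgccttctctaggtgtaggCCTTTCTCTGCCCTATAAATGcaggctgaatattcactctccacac
Defa32: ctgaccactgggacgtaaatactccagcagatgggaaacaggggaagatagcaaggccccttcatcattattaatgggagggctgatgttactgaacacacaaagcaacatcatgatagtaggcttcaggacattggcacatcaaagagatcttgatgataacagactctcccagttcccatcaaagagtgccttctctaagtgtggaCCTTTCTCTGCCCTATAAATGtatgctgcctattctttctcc
Defa37: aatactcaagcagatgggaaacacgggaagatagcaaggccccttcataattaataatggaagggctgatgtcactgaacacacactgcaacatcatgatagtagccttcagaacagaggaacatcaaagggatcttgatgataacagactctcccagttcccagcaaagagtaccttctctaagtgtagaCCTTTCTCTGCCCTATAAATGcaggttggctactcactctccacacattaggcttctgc
This run of 21 letters, CCTTTCTCTGCCCTATAAATG, starts 46, 42 and 59 bases before the start site and spans a TATA box. It was found in 9 of 32851 promoters of 300 bases (0.0274%), all of them among the 16 defensin promoters of the table. Promoters of defensins without a tested probe hold it too. The run was picked from promoters of near-identical genes, so its rarity elsewhere does not bear on the difference in signal.

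Of the 45 genes and transcripts named by rule with a called probe, 26 have a promoter in the RefSeq table. Both strands were searched for TTTATNG, the type of site that posterior Hox proteins bind, TGATTTA, the type bound by a Pbx and posterior Hox pair, and TGACAG, the type bound by Meis. TTTATNG was in a promoter of 6 of the 26 (23.1%), against 12.5% of all genes in the table, TGATTTA in 1 (3.85%), against 3.47%, and TGACAG in 5 (19.2%), against 21.6%. Of all single promoters, 10.9% hold TTTATNG, 2.97% TGATTTA and 19.2% TGACAG. The reverse of TTTATNG overlaps the TATA box in the defensins. Among genes with a match, promoters are printed for Msx3, which had the largest difference, and for the agreeing genes Slc13a5 and Xlr3b, again the 250 bases before the start, with the match in capitals. Slc13a5 is at chr11:72267162-72267411 on the minus strand, Xlr3b at chrX:73191929-73192178 on the plus strand and Msx3 at chr7:140049089-140049338 on the minus strand.
Slc13a5: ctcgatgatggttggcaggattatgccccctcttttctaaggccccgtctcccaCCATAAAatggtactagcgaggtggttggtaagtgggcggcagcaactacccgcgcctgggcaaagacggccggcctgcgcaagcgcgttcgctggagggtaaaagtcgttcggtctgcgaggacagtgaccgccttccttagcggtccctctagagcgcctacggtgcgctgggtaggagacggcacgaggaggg
Xlr3b: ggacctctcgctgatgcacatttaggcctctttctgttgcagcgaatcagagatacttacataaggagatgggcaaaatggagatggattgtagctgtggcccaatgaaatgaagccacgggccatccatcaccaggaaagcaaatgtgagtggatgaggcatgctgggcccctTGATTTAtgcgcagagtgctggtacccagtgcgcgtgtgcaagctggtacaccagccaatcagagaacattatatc
Msx3: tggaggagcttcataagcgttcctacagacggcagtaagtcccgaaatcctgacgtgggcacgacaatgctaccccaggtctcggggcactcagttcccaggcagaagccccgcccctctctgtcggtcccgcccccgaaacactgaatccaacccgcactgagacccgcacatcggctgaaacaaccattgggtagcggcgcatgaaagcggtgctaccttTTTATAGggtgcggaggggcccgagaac
The Slc13a5 match reads CCATAAA, which is TTTATNG on the other strand, and stands in 1 of its 2 promoters. The Msx3 match lies 28 bases before the start, where a TATA box would be. A match is a description of the letters only, and binding was not measured on these arrays.

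Msx3 and a few genes with 1 tested probe had larger differences than any agreeing gene. Msx3, a homeobox gene of the dorsal neural tube, was at background in parental ES and read 3.56 in HoxA9-Ct ES, with 0.28 and 0.57 in clones #1 and #9. HoxA9-Ct ES was at least 229-fold above parental ES (log2 ratio at least 7.84). ENSMUST00000030994, not named by RefSeq, read -1.97, 4.09, 0.99 and 1.27, 66.5-fold. At both probes HoxA9-Ct ES was the highest line, and the clones lay between it and parental ES. Tex13b, an X-linked gene expressed in testis, read -2.18, 1.59, -3.80 and -1.33, 13.6-fold (log2 ratio 3.77, SE 0.22). ENSMUST00000070420 and the interval chr6:145687212-145694793 were at background in the other 3 lines and were at least 11.2-fold and at least 21.9-fold higher in HoxA9-Ct ES. The interval has 2 further probes, and both were at background in all lines.

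Only 4 genes were lower with agreeing probes. Fgf18, a secreted fibroblast growth factor of limb and bone, read 0.16 in parental ES and -0.94 in HoxA9-Ct ES, with -1.68 and -0.98 in clones #1 and #9 at its brighter probe. Its dimmer probe read -0.96, -2.02, -2.85 and -2.34. HoxA9-Ct ES was 2.15-fold and 2.08-fold below parental ES, and the clones were at or below HoxA9-Ct ES. Neurod1, a basic helix-loop-helix factor of neurons and endocrine pancreas, read -1.64 in parental ES and -2.91 in HoxA9-Ct ES, with -3.55 in clone #1 and clone #9 at background, at its brighter probe, 2.41-fold lower in HoxA9-Ct ES. At its dimmer probe HoxA9-Ct ES was at background and at least 2.04-fold lower. The rest were noncoding intervals on chromosome 13. The interval chr13:98571741-98603323 was 2.51-fold, at least 1.57-fold and at least 3.36-fold lower, and chr13:81773237-81783062 was lower at all 6 tested probes, by 1.37-fold to 2.43-fold at 5 of them and by at least 1.78-fold at the other. Both intervals are on the minus strand.

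Among genes with 1 tested probe and outside the last eighth of the rows, the 5 largest decreases all came from probes that were clear in parental ES and at background in HoxA9-Ct ES. Myt1l, a neuronal zinc finger factor, read -0.35 in parental ES and was at background in the 3 other lines, at least 14.8-fold lower in HoxA9-Ct ES, but its 2 other probes were at background in both lines. ENSMUST00000103443, ENSMUST00000170969, ENSMUST00000148544 and Gm5622 had log2 ratios bounded at -3.32, -3.02, -2.86 and -2.51. Further probes of ENSMUST00000103443 and Gm5622 were also at background in parental ES, so no second probe bears these decreases out.

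The identity of the cells as ES cells was clear on both arrays. Esrrb, a nuclear receptor of naive ES cells, read 7.37 in parental and 7.40 in HoxA9-Ct ES. Zfp42 read 7.10 and 7.01, Pou5f1 6.56 and 6.44, Klf4 4.71 and 4.55, Sox2 3.65 and 3.68, and Nanog -1.61 and -1.81. All 26 listed pluripotency genes were measured, 25 lay within 2-fold, and their median log2 ratio was -0.01. The exception was Gbx2, a homeobox gene that acts downstream of LIF and Stat3 in ES cells, which read 2.94 in parental ES and 1.02 in HoxA9-Ct ES, with 2.56 and 1.86 in clones #1 and #9. HoxA9-Ct ES was 3.78-fold lower (log2 ratio -1.92, SE 0.20) and the lowest of the lines. For all named genes the share called lower was 0.737%. The 10 genes of the LIF and Stat3 list lay between -0.16 and 0.33 with none called.

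Part of the genes of primitive endoderm, the lineage that forms the yolk sac and that arises in small numbers in ES cultures, were lower in HoxA9-Ct ES. Of 23 listed genes, 18 were tested at their brightest probe, 6 were more than 2-fold lower and none higher, against 0.737% of 13304 named genes lower and 1.33% higher when read in the same way. The median log2 ratio of the list was -0.55, with 14 of 18 below 0, against 0.001 for all named genes. Without probes of the last eighth of the rows, 5 of 15 were lower. With normexp background correction 1 of 18, Lama1, was lower and the median was -0.30, and it was -0.21 over the 15 genes well above background in both lines, 4 of them lower. Dab2, Foxa2 and Sox17 were tested only because parental ES was above background, so they could only read lower. The list was chosen with earlier results known and is no independent evidence.

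The 6 tested transcription factors Gata6, Gata4, Sox17, Foxa2, Sox7 and Hnf4a were dim in both compared lines, and HoxA9-Ct ES had the lowest signal of the 4 lines at all of them but Sox7. Gata6, a zinc finger factor at the top of the lineage, read -1.998 in parental ES and -3.38 in HoxA9-Ct ES, with 0.24 and 0.53 in clones #1 and #9, 2.61-fold below parental ES (SE 0.31 on the log2 scale). Gata4, its relative, read -2.50, -3.67, -0.72 and -0.53, 2.24-fold lower. Sox17, a transcription factor of endoderm, had 2 probes and HoxA9-Ct ES at background at both. It was at least 1.68-fold lower at the one that reads brighter on average and at least 2.70-fold lower at the other. Foxa2, a forkhead factor, was at least 2.63-fold lower, with its probe in the last eighth of the rows. The others were within 2-fold. Sox7, an SRY-box factor, read -2.34, -2.09, -1.11 and -0.75, and Hnf4a, a nuclear receptor, read -2.20, -2.30, -1.21 and 0.64. Both clones were above parental ES at the tested probes of each of these genes.

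Some effector genes of the lineage were also lower. Dab2, an endocytic adaptor, read -2.62 in parental ES, with -1.11 and -0.56 in clones #1 and #9, and was at background in HoxA9-Ct ES, at least 3.07-fold lower. Its endocytic partner Cubn, an uptake receptor, read -0.16, -1.26, 0.12 and 0.83, 2.13-fold lower. Lama1, the laminin chain of early basement membranes and the brightest of the called genes, read 5.07, 4.01, 5.25 and 5.13, 2.09-fold lower. Col4a1 and Col4a2, both collagen IV chains, had log2 ratios of -0.58 and -0.80 and did not pass 2-fold. Lamb1, Lamc1 and Sparc lay between -0.19 and 0.16. The uptake receptor Lrp2, its partner Amn and the cofactor Cited1 were at -0.12, -0.51 and -0.21, and the apolipoprotein Apoe, with 0.42, had the highest ratio of the list. Afp, Apoa1, Pdgfra and Ttr were at background in both lines. In bulk RNA, fewer cells of a type and less RNA in each cell cannot be told apart.

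**Figure D5:**
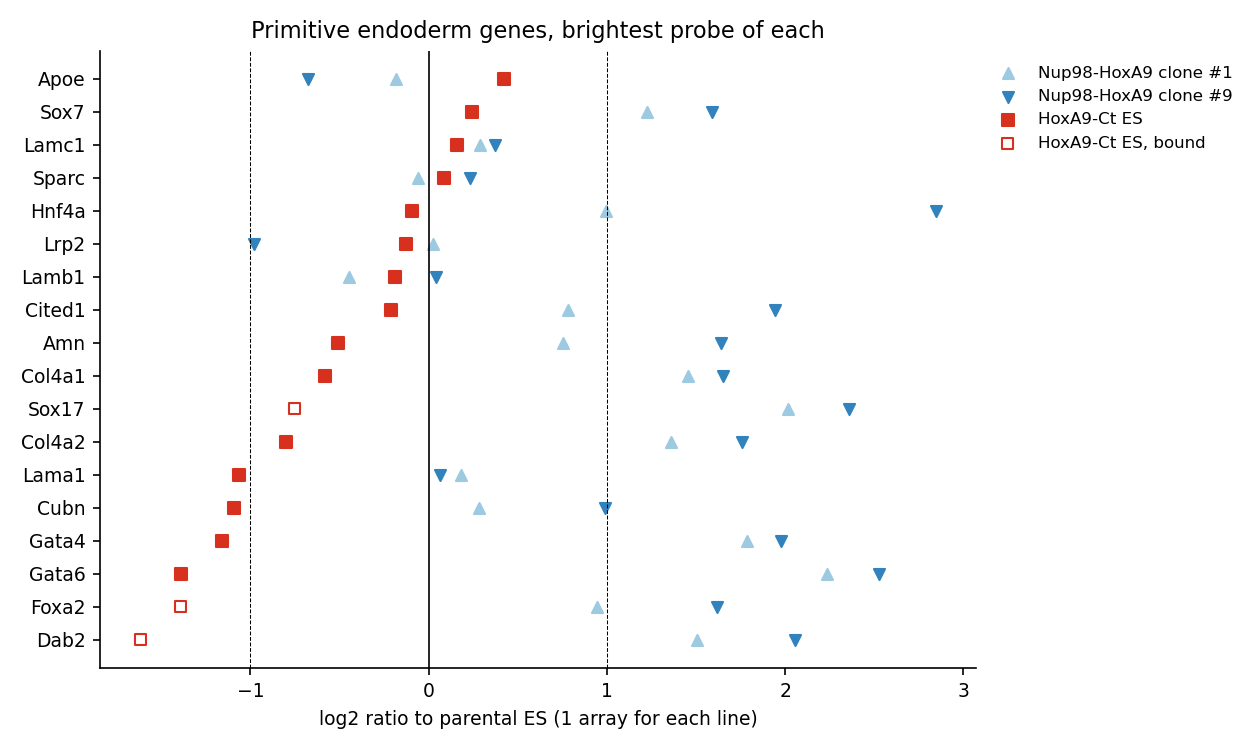
Log2 ratio to parental ES (x axis) of the 18 tested primitive endoderm genes at their brightest probe, for HoxA9-Ct ES (squares, open where the value is a bound) and Nup98-HoxA9 clones #1 and #9 (triangles), 1 array for each line. Dashed lines mark 2-fold. Gata6, Gata4, Foxa2, Dab2, Cubn and Lama1 lie past -1 in HoxA9-Ct ES, while the clones lie above 0 at the same genes. All ratios share the parental array.

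The lists of other lineages had at most 2 called genes each. Over all named genes, 1.33% were called higher and 0.737% lower. Among primed epiblast genes 1 of 10 was lower, with a list median of -0.43 (-0.22 with normexp). This was Lef1, the transcription factor that binds beta-catenin in Wnt signalling, which read -0.89 in parental ES and -2.73 in HoxA9-Ct ES, with -5.15 and -3.72 in clones #1 and #9, 3.58-fold lower. Among 9 tested Wnt targets 2 were lower, Lef1 and Sp5, a direct Wnt target that read -0.66, -1.73, -3.03 and -3.86, 2.09-fold lower, against 0.737% of all named genes. Both were lower in all 3 transgenic lines. With normexp neither passed 2-fold (log2 ratios -0.94 and -0.67). The list median was -0.29, with -0.46 over probes above background in both lines and -0.625 with measured ratios and no bound, and Axin2, Lgr5 and T were at background in both lines.

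Trophectoderm had 1 of 11 genes higher, Plet1, an epithelial surface protein, at 2.16-fold at 1 probe while its other probe gave 1.02-fold. Cdx2, Elf5, Gata3 and Hand1 were at background. Among 7 tested mesoderm genes Nkx1-2, a homeobox gene of the caudal epiblast, was at least 4.30-fold higher at 1 of 3 probes, the others being at background, and T, Mixl1 and Mesp1 were at background. Kdr, a VEGF receptor of the same list, was 2.78-fold lower at its dimmer probe and 1.19-fold higher at its brighter one. Of 9 tested neural genes Sox1 was 2.01-fold higher at its brighter probe and 1.07-fold at the other. The brighter Sox1 probe was within 2-fold with median centring, quantile normalization and normexp (log2 ratios 0.94, 0.99 and 0.675). It stayed past 2-fold in the other settings run on single probes. The calls of Plet1, Nkx1-2 and Sox1 stand beside 1.33% of all named genes called higher. Nkx1-2 was tested only because HoxA9-Ct ES was above background. In 2-cell-like, fibroblast and germline genes 0 of 9, 0 of 8 and 0 of 12 tested genes passed 2-fold.

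The Hox clusters, which hold the anterior to posterior patterning genes, were mostly at background in HoxA9-Ct ES. Of 39 genes, 31 were at background in both compared lines, and 8 were tested, of which 3 were called higher and none lower, against 1.33% and 0.737% of all named genes. These 3 were tested only because HoxA9-Ct ES was above background, so the count is no support for a difference. Each call was a bound from parental ES at background: Hoxc4 at least 2.20-fold, Hoxd4 at least 2.41-fold, and Hoxb3 at least 7.58-fold with its probe in the last eighth of the rows and its second probe at background. With normexp Hoxb3 alone passed 2-fold. Hoxa7 read -2.73 in parental ES and -2.42 in HoxA9-Ct ES, with 4.93 and 4.61 in clones #1 and #9. Hoxb9, Hoxc13 and Hoxd13 had log2 ratios of 0.04, 0.79 and -0.41. At Hoxa7, which was high in both clones, the compared lines lay within 2-fold of each other.

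The Hoxa9 probes do not check the transgene. Both were at background in parental and HoxA9-Ct ES and read 0.62 and 0.22 in clone #1 and 0.69 and 0.20 in clone #9, and where they lie relative to the expressed HoxA9 part is not given in the sources used here. Among the cofactors Pbx, Meis and Pknox, 0 of 9 tested genes passed 2-fold, and their median log2 ratio was 0.14. Pbx3 read 0.44 in parental ES, 0.26 in HoxA9-Ct ES, 3.09 in clone #1 and 3.33 in clone #9. Of 9 tested genes linked to HoxA9 in leukaemia, none was called, with a median of -0.07. Homeobox genes outside the clusters had 14 tested, with Msx3 higher and Gbx2 lower, against 1.33% and 0.737% of all named genes. Msx3 was tested only because HoxA9-Ct ES was above background.

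Cell state lists changed little. Of 16 tested p53 targets and cell cycle inhibitors, 1 was called at its brightest probe, Cdkn2b, a CDK inhibitor, at least 2.12-fold higher. Of all named genes, 1.33% were called higher. Cdkn2b was tested only because HoxA9-Ct ES was above background, and its other probe was at background in both lines. Cdkn1a, the CDK inhibitor p21, was at least 2.21-fold higher at a probe at background in parental ES and 1.25-fold at its bright probe. All 17 cholesterol synthesis genes had a log2 ratio below 0, from -0.55 to -0.03, with a median of -0.27 and none past 2-fold. The median lay between -0.34 and -0.25 under the alternative settings. Clone #1 had a median of -0.14 and clone #9 of 0.07 for the same genes. ERK, BMP, Nodal and retinoic acid genes (14, 9, 6 and 7 tested) had none called, nor had hypoxia and glycolysis (17), ER stress (13), heat shock (6), Polycomb subunits (13), DNA methylation enzymes (7), adhesion genes (8) or the 11 housekeeping genes, whose median was 0.02.

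The 3 tested genes of the Y chromosome list were lower in HoxA9-Ct ES without passing 2-fold. Eif2s3y, a translation initiation factor subunit, read 3.05 in parental ES and 2.27 in HoxA9-Ct ES, with 0.95 and 1.57 in clones #1 and #9. Ddx3y, an RNA helicase, read 0.64, -0.30, -0.75 and -0.18. The log2 ratios were -0.77 and -0.94 (SE 0.20 and 0.21), and at Uty, a histone demethylase homologue, a bound of -0.73. Uty was tested only because parental ES was above background, so it could only read lower. Parental ES had the highest signal of the 4 lines at each of these 3 genes, and 5 other Y genes were at background in parental and HoxA9-Ct ES.

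Some further called genes were picked after their values were seen, so they stand for no theme. Sting1, the cytosolic DNA sensor adaptor, read -1.27 in parental ES and 0.36 in HoxA9-Ct ES, with -0.08 and 0.78 in clones #1 and #9, 3.09-fold higher. Ube2l6, the ISG15-conjugating enzyme, read 0.89, 2.24, 1.53 and 1.78, 2.56-fold higher. All 3 transgenic lines were above parental ES at both genes, and clone #9 was the highest at Sting1. Ifitm3, an antiviral membrane protein, read 3.45, 4.46, 2.67 and 3.57, 2.01-fold higher, with clone #1 below parental ES. Of 11 interferon response genes on the array, 3 were tested, at log2 ratios of -0.01 to 0.26, and 8 were at background. On the lower side were Wnt5a, a secreted Wnt ligand, at -2.05 and -3.84 (3.44-fold), Nrp2, a semaphorin receptor, at 1.91 and 0.22 (3.24-fold), with a second probe in the last eighth of the rows at 3.45-fold, and Ccnd2, cyclin D2, at 2.28 and 0.89 (2.62-fold). Wnt5a, Nrp2 and Ccnd2 were below parental ES in both clones as well.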

How the data were processed

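RNA of 4 mouse ES cell lines was hybridised to one-colour Agilent SurePrint G3 arrays, 1 array each. The authors extracted the scans with Agilent Feature Extraction 10.10.1.1 (per the labels). The processed signals of the deposited scans, used here, are background-subtracted, spatially detrended and not scaled between arrays. The authors' series table of intensity values equals these signals times 1 constant for each array, to within 0.0308% above a signal of 50. Control spots and outlier spots were left out, log2 of the processed signal was centred on the 75th percentile of 59305 spots, and spots of a probe were averaged. The share of spots well above background was 49.9% to 53.0%, none was saturated, and 1 array for each line limits the precision. Symbols came from RefSeq accessions (GRCm38.p6), which named 26762 of 55681 probes. The array annotation uses mm9.

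Probes above background in either line were called past 2-fold. Genes named are, for each direction, 12 with agreeing probes (ranked by the smaller ratio), 5 with 1 tested probe outside the last eighth of the rows, Hox genes above background, list members past 2-fold, and 6 ES markers. Some genes that stay in the counts of their lists are not reported by name here. List genes were read at the brightest probe. Members, lists and rules were chosen with earlier results of these data known. Alternatives were the scaling, normexp (offset 50), the authors' table, the treatment of dim probes and outlier spots, the fold, the last eighth of the rows, the rule for a gene, and limma 3.58.1 (R 4.3.3) on 3 groups with 1 residual degree of freedom. Normexp was run on the median spot and background signals instead of the processed signal. Python 3.11.15, numpy 2.4.6 and pandas 2.3.3 were used, and the calling code and the limma fit were tested on simulated data.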

Additional observations from a re-analysis of the deposited data

Results flagged for a closer look

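The genes named by rule were scanned at their brightest tested probe, and other genes and probes were not. Among them, 3 moved in opposite directions in HoxA9-Ct ES and in both Nup98-HoxA9 clones, each past 2-fold against the same parental array. Gata6 had a log2 ratio of -1.39 in HoxA9-Ct ES, 2.23 in clone #1 and 2.53 in clone #9. Gata4 had -1.16, 1.79 and 1.98 in the same order, and Dab2, at background in HoxA9-Ct ES, had a bound of -1.62 against 1.51 and 2.05. With normexp the ratios of HoxA9-Ct ES to parental ES were -0.46 for Gata6, -0.28 for Gata4 and -0.48 for Dab2, within 2-fold. These differences between the lines were not tested, and all of the ratios share the parental array.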

How the results depend on the processing

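Median centring of each array, quantile normalization, the median of probes above background on all arrays, the authors' table and keeping outlier spots left all counts within 1.5 times of 382 and 233 probes and of 12 and 4 genes. Median centring lost the calls of Sfmbt2 and of the chromosome 15 and 16 intervals, quantile normalization that of the latter. Counts of probes higher and lower were 60 and 28 with normexp, 230 and 108 with probes above background on both arrays, 626 and 453 with measured ratios and no bound, 1346 and 961 at 1.5-fold, 34 and 34 at 4-fold, and 120 and 105 with limma at an adjusted p of 0.05 (1951 of 55562 probes at an unadjusted p under 0.05), and 140 were lower without the last eighth of the rows. Genes higher and lower numbered 6 and 0 with normexp, 24 and 7 with no bound, 70 and 42 at 1.5-fold, 1 and 0 at 4-fold, and 20 and 7 by the mean over probes. Genes lower numbered 2 with probes above background on both arrays and 2 where every probe had to pass. Normexp kept the calls of Slc13a5, Defa3, Defa23, NM_010031, Tuba3a and the chromosome 18 interval. The settings were run on the alpha-defensins only after the data were seen, and normexp gave a median of 1.00 with 5 of 11 probes past 2-fold. None of the 64 probes past 2-fold that belong to named genes changed sign. Probes within 2-fold were not run singly, and median centring shifts the median ratio of all tested probes by -0.067. No paired analysis was possible because each line has 1 array and the compared lines have no shared pairs.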
